A study of Mus musculus with 20 samples.

Results

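The S100 proteins are a family of small calcium-binding proteins with paired EF-hand domains, and 10 of their genes, *S100a1*, *S100a4*, *S100a6*, *S100a8*, *S100a9*, *S100a10*, *S100a11*, *S100a13*, *S100a16* and *S100b*, were followed through every cell type of sham and injured spinal cord. They were taken by symbol from the single-cell count table, where they were 10 of 16003 genes. For each gene the unique molecular identifiers (UMIs, each standing for 1 captured transcript) were summed over the cells of a cluster in a library and written per 1000000 UMIs (CPM) of that cluster and library.

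The study asked how spinal cord injury (SCI) and loss of microglia alter the cells of the cord. Female C57BL/6J mice of 8 to 10 weeks ate vehicle chow or chow with PLX5622 (1200 ppm per the labels, where the study's methods also state another concentration), an inhibitor of the Csf1 receptor on which microglia depend, from 2 weeks before a T9 contusion or a sham laminectomy until the end point. Cells came from a 1 cm piece of unperfused cord with its meninges at 7 or 28 days post-injury (dpi), or from sham mice, after removal of myelin and dead cells, a preparation that favours glia and immune cells over neurons. This gave 6 libraries (sham, 7 dpi and 28 dpi under each diet), each pooled from 3 to 4 mice. The labels give both end points for each sham library, and it is not clear whether sham mice of both days were pooled, so a ratio over sham has no matched day. PLX5622 acts on every cell with the receptor, monocyte lineage cells included. No library was repeated, so a difference between 2 libraries has no replicate check, no p-value was made, and all intervals are 95% intervals for counting error only. A gene is called past the fold where it differed at least 2-fold between 2 libraries that each held 20 or more cells of the cluster and together 100 or more UMIs of the gene.

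S100 proteins bind calcium and then bind target proteins. Within cells, S100A10 holds annexin A2 at membranes, S100A4 binds non-muscle myosin, and S100A6 and S100A11 also bind annexins. S100A8 and S100A9 pair as calprotectin, an abundant cytosolic protein of neutrophils, which is released as an alarmin that can act through Tlr4 and Ager. S100B is a common marker of astrocytes and is also made by oligodendrocyte lineage and ependymal cells.

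The table held 21016 cells in 14 clusters: the vehicle libraries gave 1795 (sham), 7439 (7 dpi) and 9846 (28 dpi) and the PLX5622 libraries 492, 504 and 940. There were 2606149 to 35694246 UMIs in a library. The authors made the clusters from variable genes of the same counts, so the clusters need not be independent of the members. *S100a9* and *S100a8* were among the leading genes of the neutrophil cluster, and *S100a4* among those of monocytes and dendritic-like cells. Clusters were named here from markers that included no S100 gene, and most markers were highest in their own cluster. The exceptions lay in 6 clusters, among them 3 of 6 leptomeningeal markers, 2 of 6 oligodendrocyte markers (*Mbp* and *Cldn11*) and *Fn1* of the monocyte-derived macrophages (MDMs) highest elsewhere. The oligodendrocyte lineage cluster led with precursor genes such as *Pdgfra*, *Cspg5* and *Gpr17*, and the cluster of proliferating cells led with *Top2a* and *Mki67*. A total of 44 cell barcodes occurred in more than 1 library. Median UMIs per cell differed between libraries, from 2268.5 (28 dpi vehicle) to 5127 (7 dpi PLX5622), and the depth behind a share of cells is given beside it.

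Of the 10 genes, 9 lie on mouse chromosome 3 and *S100b* lies on chromosome 10 (GRCm38.p6). The genes from *S100a1* to *S100a9* take up chr3:90511034-90695721, 7 members in 0.185 Mb, and *S100a11* and *S100a10* lie at chr3:93520496-93526288 and chr3:93555117-93564645. *S100a1* and *S100a13* lie head to head, and their first bases overlap. RefSeq promoter windows (250 bases before to 50 after the start, GRCm38.p6) matched 9 of the 10 members.

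5 windows are printed 5′ to 3′ on the gene's own strand because the members they belong to carry the cell type and injury patterns below. Capitals mark exact letters searched on both strands: TATAAA and TTNNGNAA (a loose C/EBP consensus) in the 2 neutrophil genes, TATAAA in *S100a4*, TGANTCA (AP-1) in *S100a11* and CCAAT in *S100b*. GGGCGG (a GC box) was searched as well and is left in lower case, and no 2 matches in these windows overlap. C/EBP factors are known regulators of granulocyte genes and AP-1 of stress genes.
*S100a8*, chr3:90668821-90669120, plus strand: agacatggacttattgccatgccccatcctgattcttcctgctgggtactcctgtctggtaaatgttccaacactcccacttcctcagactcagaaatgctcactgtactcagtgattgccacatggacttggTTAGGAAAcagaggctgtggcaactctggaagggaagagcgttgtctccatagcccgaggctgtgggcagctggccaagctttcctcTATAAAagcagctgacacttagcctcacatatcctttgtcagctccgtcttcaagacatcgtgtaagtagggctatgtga
*S100a9*, chr3:90695672-90695971, minus strand: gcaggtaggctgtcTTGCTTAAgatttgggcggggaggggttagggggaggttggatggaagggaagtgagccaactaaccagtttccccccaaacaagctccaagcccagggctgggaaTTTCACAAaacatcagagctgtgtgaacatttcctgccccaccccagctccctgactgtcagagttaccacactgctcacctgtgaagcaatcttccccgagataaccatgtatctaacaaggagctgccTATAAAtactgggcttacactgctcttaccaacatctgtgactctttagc
*S100a4*, chr3:90603520-90603819, plus strand: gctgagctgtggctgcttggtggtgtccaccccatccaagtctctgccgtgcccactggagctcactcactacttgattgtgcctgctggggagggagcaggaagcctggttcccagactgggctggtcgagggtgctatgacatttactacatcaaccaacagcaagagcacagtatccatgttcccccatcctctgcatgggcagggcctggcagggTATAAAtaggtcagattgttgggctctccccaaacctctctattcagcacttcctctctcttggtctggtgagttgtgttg
*S100a11*, chr3:93520246-93520545, plus strand: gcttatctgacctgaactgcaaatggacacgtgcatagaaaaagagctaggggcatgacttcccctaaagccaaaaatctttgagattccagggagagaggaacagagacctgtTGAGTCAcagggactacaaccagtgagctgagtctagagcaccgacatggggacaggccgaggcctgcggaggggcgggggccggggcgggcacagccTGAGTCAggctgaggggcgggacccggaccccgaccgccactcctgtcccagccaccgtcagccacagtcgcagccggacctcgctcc
*S100b*, chr10:76253586-76253885, plus strand: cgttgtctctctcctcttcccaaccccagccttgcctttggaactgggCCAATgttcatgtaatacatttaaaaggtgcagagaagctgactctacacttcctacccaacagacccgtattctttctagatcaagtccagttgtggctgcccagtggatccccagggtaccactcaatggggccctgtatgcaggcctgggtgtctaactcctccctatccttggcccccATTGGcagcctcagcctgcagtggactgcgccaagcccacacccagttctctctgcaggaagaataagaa

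TATAAA stood 30 bases before the start of *S100a8*, 31 bases before that of *S100a4* and at the annotated start of *S100a9*. It was absent from the windows of the other members, and 13.6% of all 32851 promoter windows held it. TTNNGNAA was found once in *S100a8* and in 2 places in *S100a9*, and no other member window held it, against 40.7% of all windows. TGANTCA stood in 2 places in *S100a11* and in 1 of 2 windows of *S100a16*, against 7.81% of all windows, and CCAAT in *S100b* and *S100a6*, against 37.4%. GGGCGG was in the windows of *S100a9*, *S100a11* and *S100a16*, against 35.7%. These letter matches describe the windows and are not evidence that a factor binds there.

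The 10 genes fell into different cell types. Each gene's level was summarised as the median CPM over the libraries with at least 20 cells of the cluster. *S100a8*, *S100a9*, *S100a6* and *S100a11* were highest in neutrophils, *S100a4* in monocytes and dendritic-like cells, *S100a10* in leptomeningeal cells, *S100a13* in endothelial cells, and *S100b*, *S100a1* and *S100a16* in oligodendrocyte lineage cells. Each of these clusters was also the highest when UMIs were summed over all libraries.

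**Figure D1:**
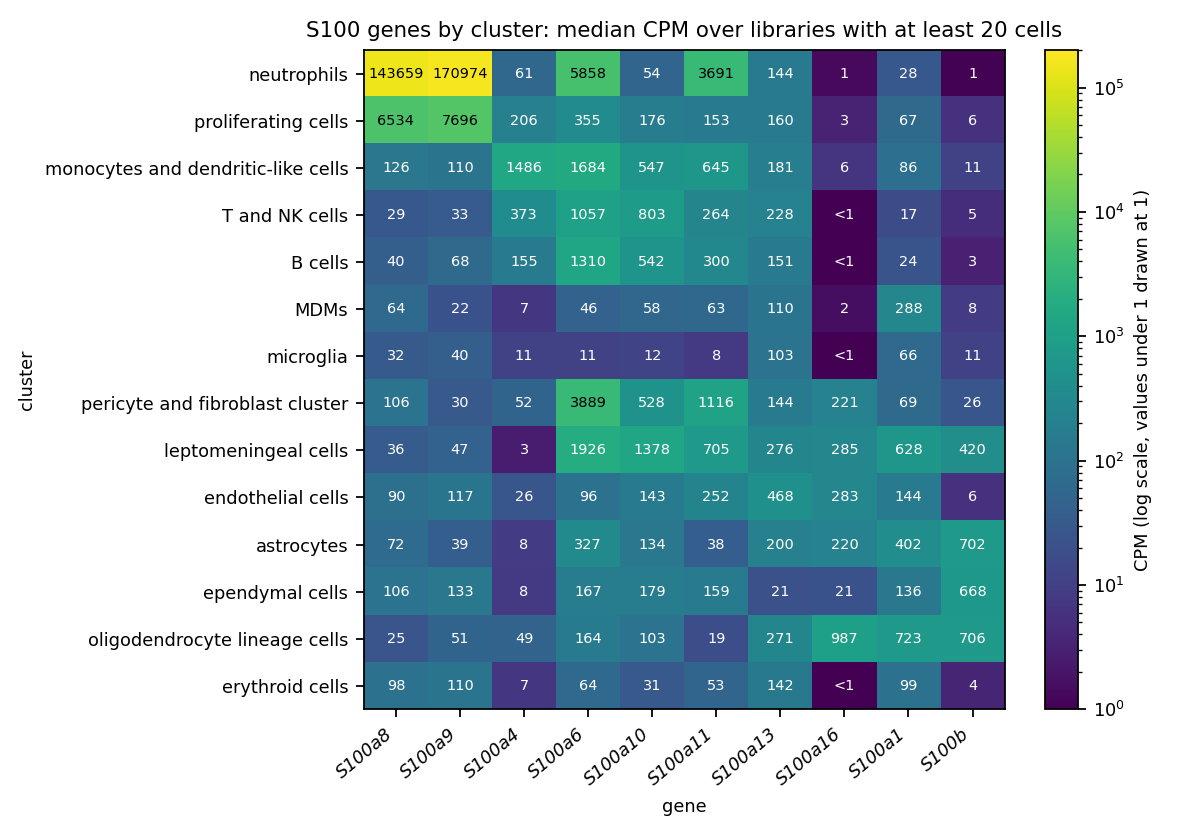
Median CPM of each S100 gene (columns) in each cluster (rows) over the libraries with at least 20 cells, on a log colour scale with the value printed in each field. *S100a8* and *S100a9* reach 143659 and 170974 CPM in neutrophils, *S100a4* reaches 1486 CPM in monocytes and dendritic-like cells, and *S100a16* and *S100b* are near 0 in the immune clusters.

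The genes also differed in breadth. *S100a13*, a partner in the release of Fgf1 and Il1a, had a median of at least 100 CPM in 13 of 14 clusters, and *S100a6* and *S100a10* reached that level in 10. *S100a4* reached it in 4 clusters and *S100b* in 4, and *S100a16* was under 10 CPM in 8 clusters. For *S100a8* and *S100a9* the median in neutrophils stood 22.0 and 22.2 times above that of the next cluster, and the ranges over libraries did not overlap. The ranges of neighbouring clusters did overlap for *S100a4* (monocytes and dendritic-like cells against T and NK cells), *S100a1* (oligodendrocyte lineage against leptomeningeal cells) and *S100b*, where oligodendrocyte lineage cells (706 CPM), astrocytes (702) and ependymal cells (668) could not be put in order. Clusters of lower rank also overlapped the first. *S100a10* reached 1700 CPM in the pericyte and fibroblast cluster, above the leptomeningeal range of 1308 to 1449 CPM. *S100a13* reached 471 CPM in that cluster and 579 CPM in oligodendrocyte lineage cells, against 388 to 551 CPM in endothelial cells.

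*S100a8* and *S100a9* together made up a large part of the transcripts of a neutrophil. *S100a8* in the neutrophil cluster was 179291, 110844 and 117096 CPM in the sham, 7 dpi and 28 dpi vehicle libraries and 170222 CPM at 28 dpi under PLX5622. *S100a9* in the same libraries was 189289, 146639, 152658 and 216265 CPM. Both were lower in the injured than in the sham vehicle library, with log2 ratios of -0.69 (-0.71 to -0.68) for *S100a8* and -0.37 (-0.38 to -0.35) for *S100a9* at 7 dpi, less than 2-fold. The other 2 PLX5622 libraries held 11 (sham) and 12 (7 dpi) neutrophils, under the minimum of 20, and gave 187300 and 65383 CPM of *S100a8*.

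Cell by cell, the pair held a median of 36.9%, 29.2% and 33.1% of a neutrophil's UMIs in the sham, 7 dpi and 28 dpi vehicle libraries. The medians under PLX5622 were 31.9%, 11.5% and 33.3%. At 7 dpi under vehicle, 180 of 223 neutrophils had at least 10% of their UMIs in these 2 genes, and the middle 50% of cells ran from 13.8% to 40.3%. The 12 neutrophils of the 7 dpi PLX5622 library therefore lay low, with a highest cell of 30.0%. In those 12 cells *Camp*, *Ngp* and *Ltf*, which encode granule proteins of maturing neutrophils, had 0 UMIs, while *Cxcr2*, the chemokine receptor of mature neutrophils, was at 1055 CPM against 482 CPM in the 7 dpi vehicle library. *Retnlg*, a transcript of neutrophils, was at 1997 CPM there against 14544 CPM. The part of cell maturity in the *S100a8* and *S100a9* level was not tested.

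**Figure D2:**
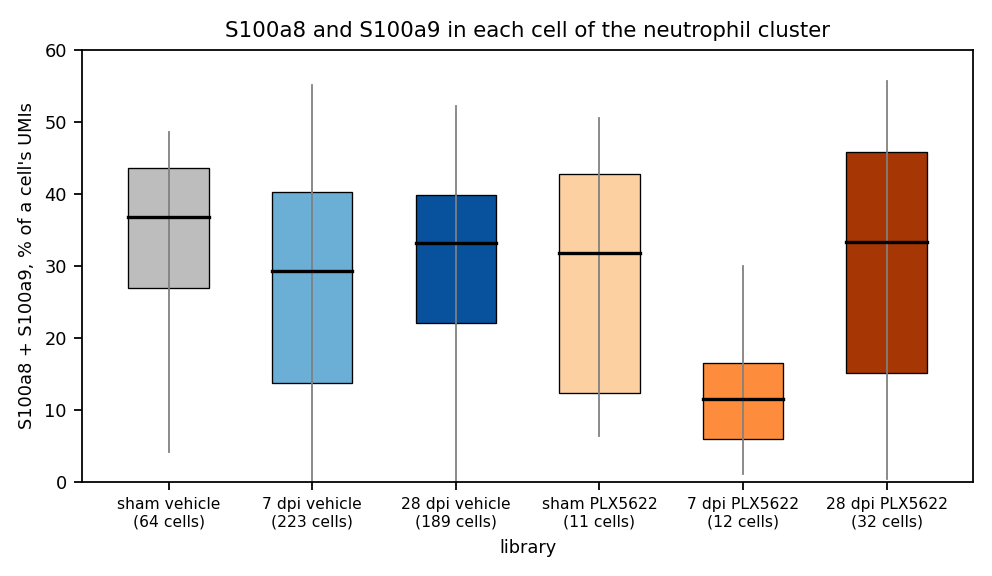
Share of each neutrophil's UMIs that came from *S100a8* and *S100a9* (y axis, percent) by library (x axis, with cell numbers). Boxes span the middle 50% of cells, bars mark the median and lines run from the lowest to the highest cell. The medians lie between 29.2% and 36.9% except in the 12 cells of the 7 dpi PLX5622 library, at 11.5%.

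Neutrophils were a small part of each library, 1.92% to 3.57% of cells, and held 71.9% to 98.9% of its *S100a8* and *S100a9* UMIs. The proliferating cluster held most of the rest in 4 libraries, from 12.0% at 28 dpi to 26.0% in sham under vehicle and 20.2% in sham under PLX5622, the latter from 1 of 7 cells. Its level was 56680.3, 6534 and 5047 CPM of *S100a8* in the sham, 7 dpi and 28 dpi vehicle libraries. A few cells carried it. In the sham vehicle library 12 of 29 proliferating cells had at least 1% of their UMIs in the pair, in the 7 dpi vehicle library 20 of 307, and at 28 dpi 14 of 248. Those cells also carried *Camp* at 56150, 38607 and 25307 CPM and *Ngp* at 35735, 30727 and 19913 CPM together with *Mki67* and *Top2a*, and in the remaining proliferating cells *Camp* was at 0, 3.45 and 3.49 CPM. Droplets with 2 cells were not removed, and their part in this was not tested.

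The fraction of the proliferating cluster made of such cells differed between libraries, and so did the cluster's S100 levels. Of 8 members tested, 6 (*S100a8*, *S100a9*, *S100a4*, *S100a6*, *S100a10* and *S100a11*) were at least 2-fold lower at 7 dpi than in sham and none was 2-fold higher, where 8.43% of all genes tested were 2-fold lower and 15.7% higher. The same count was 6 of 8 lower and 0 higher at 28 dpi, with 8.7% of all genes lower and 17.2% higher. The median log2 ratio of the members was -1.93 at 7 dpi and -2.85 at 28 dpi, against -0.00024 and -0.0039 over all genes tested. *S100a4*, for one, was at 761, 206 and 79.0 CPM in the sham, 7 dpi and 28 dpi vehicle libraries. In the cells under 1% of *S100a8* and *S100a9* it was at 1074, 210 and 82.1 CPM, with 17 such cells in sham. These cells were not alike between libraries either, as *Elane*, a leading gene of the cluster, was at 1716, 118 and 41.1 CPM in them. The part of this in the *S100a4* level was not tested. With only the cells under 2 neutrophil marker UMIs (15 in sham), the *S100a9* ratios over sham went from -2.98 to -0.34 at 7 dpi, under the fold, and from -3.20 to 0.68, of opposite sign, at 28 dpi, and those of *S100a8* were -1.40 and -1.18. The sham values of all cells rest on 29 cells.

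Outside these 2 clusters, 19868 cells held 22095 UMIs of *S100a8* and *S100a9*, and 28 droplets with 50 or more of them held 50.9% of that sum. Of the 28 droplets, 26 also held at least 2 UMIs of 7 neutrophil markers (*Retnlg*, *Mmp8*, *Mmp9*, *Cxcr2*, *Camp*, *Ltf* and *Ngp*). In ependymal cells at 7 dpi under vehicle, for example, *S100a8* was at 1992 CPM, and 1 droplet held 881 of its 1368 UMIs. The *S100a9* of endothelial cells was 1724 CPM in the sham vehicle library, and without 2 droplets with neutrophil markers it was 47.3 CPM. Not all counts of the pair lay in such droplets. In erythroid cells at 28 dpi under vehicle *S100a8* was at 295 CPM (25 UMIs), and none of the 35 cells held 2 neutrophil marker UMIs.

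Low counts of the pair were spread over all cell types. After each cell was thinned to 1000 UMIs and shallower cells (1579 at 28 dpi under vehicle) were left out, the share of cells with *S100a8* in 12 cell types other than neutrophils and proliferating cells ran from 5.40% to 14% at 28 dpi under vehicle, with a median of 9.16%. The unthinned shares were 14.5% to 20.0%. The medians of the thinned shares were 3.33% and 9.38% in the sham and 7 dpi vehicle libraries and 0%, 1.41% and 3.38% in the PLX5622 libraries. Endothelial cells were taken as the comparison, on the untested assumption that they make little of the pair. Their thinned share was 11.04% at 7 dpi and 9.57% at 28 dpi under vehicle, at median depths of 2409 and 1342 UMIs. Of these cells, 11 of 351 at 7 dpi and 2 of 420 at 28 dpi held at least 2 neutrophil marker UMIs. Shares without those cells were not made. A share at or under the endothelial one is therefore not told apart from background here, which does not show that the cells lack the transcripts. In microglia, the resident macrophages of the cord, the share with *S100a8* was 7.21% and 8.54% in the same libraries, at median depths of 2902.5 and 1686 UMIs, under the endothelial shares. It was 4.20% in sham microglia against 2.63% in sham endothelial cells, with counting intervals that overlap.

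The ratio of *S100a8* to *S100a9* UMIs was higher in MDMs than in neutrophils in most libraries. In neutrophils it was 0.947, 0.756 and 0.767 in the sham, 7 dpi and 28 dpi vehicle libraries and 0.944, 1.13 and 0.787 under PLX5622. In the microglia of the vehicle libraries the ratio of 7 dpi was 0.702 (0.626 to 0.786) and that of 28 dpi 0.763 (0.691 to 0.842), next to the neutrophil values of the same libraries. MDMs had 2.81 (1.84 to 4.38), 1.60 (1.50 to 1.72) and 0.776 (0.711 to 0.848) in the vehicle libraries. The PLX5622 libraries gave MDM ratios of 33.7 (16.1 to 84.8) on the 7 dpi sample and 3.75 (2.27 to 6.49) on the later one. In 4 of the 5 libraries with at least 20 MDMs the counting interval lay above the neutrophil ratio of the same library, and at 28 dpi under vehicle it held that ratio. These intervals do not allow for UMIs that gather in few cells. In sham vehicle MDMs 3 cells held 33 of the 87 *S100a8* UMIs, and at 28 dpi under PLX5622 5 cells held 43 of 75. The 75 monocytes and dendritic-like cells of the sham vehicle library were also above their neutrophils, at 2.03 (1.36 to 3.05), but 1 cell held 45 of their 79 *S100a8* UMIs.

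**Figure D3:**
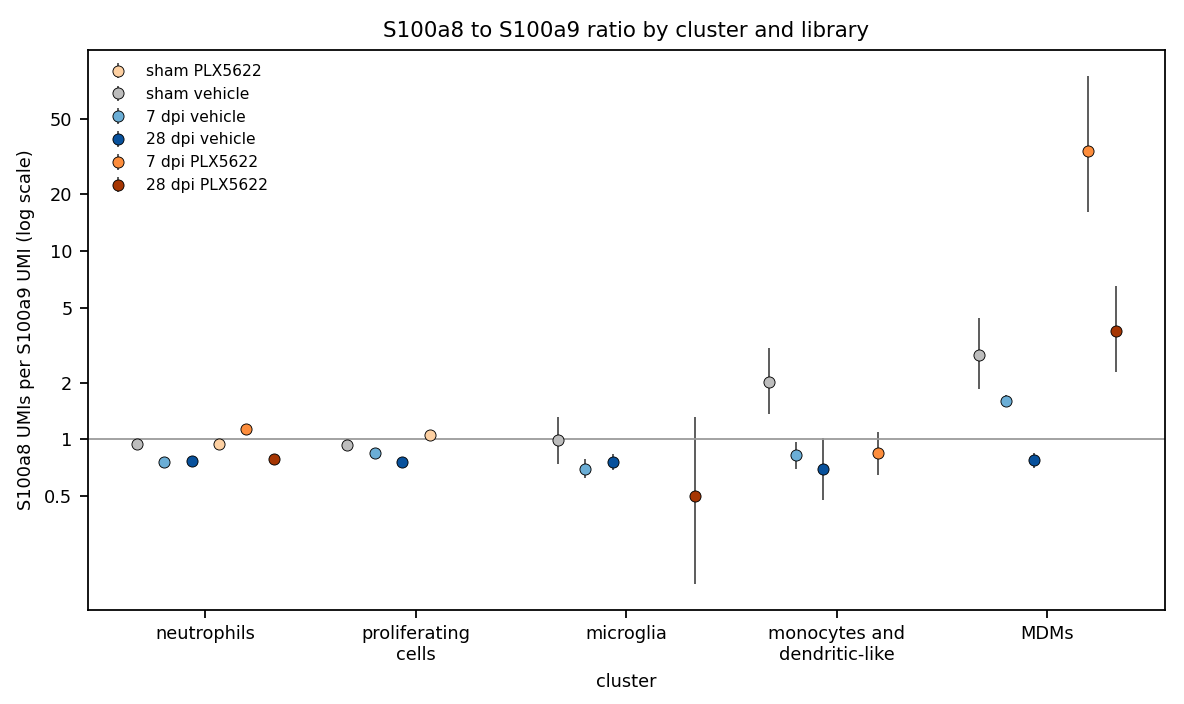
*S100a8* UMIs per *S100a9* UMI (y axis, log scale) in 5 clusters (x axis) by library. Points are ratios of summed UMIs, bars are exact 95% intervals for counting error, and units with fewer than 20 UMIs of the pair are left out. Neutrophil ratios lie between 0.756 and 1.13, and the MDMs of the 7 dpi PLX5622 library stand at 33.7.

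At 7 dpi under PLX5622, 236 UMIs of *S100a8* and 7 of *S100a9* were counted in 100 MDMs. *S100a8* was found in 46 of these cells and *S100a9* in 7. Of the 16 cells with 5 or more *S100a8* UMIs, 13 had no *S100a9*, and the highest cell had 27 UMIs of *S100a8*. In the vehicle library of the same day, 66 of 3023 MDMs had 5 or more *S100a8* UMIs and 36 of them had no *S100a9*. Cells with *S100a8* and without *S100a9* were thus present under both diets. *S100a8* itself was 61.3, 115 and 64.3 CPM under vehicle and 135 and 58.3 CPM at 7 and 28 dpi under PLX5622.

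The neutrophil markers of these MDMs were mostly *Mmp8*, a collagenase, with 812 of 1106 marker UMIs at 7 dpi under vehicle and 70 of 85 at 7 dpi under PLX5622, where *Camp*, *Ngp* and *Retnlg* were at 0. With only the cells that had fewer than 2 such UMIs, an alternative chosen after the ratio was seen, the ratio was 32.3 (129 against 4 UMIs) at 7 dpi under PLX5622, 1.82 at 7 dpi under vehicle and 0.849 at 28 dpi under vehicle. Proliferating cells under the same filter were also above the neutrophils of the 3 vehicle libraries. Their ratios were 5.14 (2.26 to 13.7) in sham (15 cells), 2.46 (1.88 to 3.25) at 7 dpi and 1.42 (1.06 to 1.90) at 28 dpi. A single droplet of 206 *S100a8* and 344 *S100a9* UMIs was among the 3313 MDMs of the 28 dpi vehicle library. The thinned share of MDMs with *S100a9* was 5.72% at 7 dpi and 6.72% at 28 dpi under vehicle, under the endothelial shares of 13.7% and 12.9%. The thinned share with *S100a8* was 7.48% and 5.40% at 7 and 28 dpi under vehicle, under the endothelial shares of *S100a8* as well, while the ratio at 7 dpi differed from that of neutrophils as described. It was 9.09% (4.24 to 16.6) at 7 dpi under PLX5622, where the median over 9 types was 1.41% and endothelial cells were at 1.41% as well. The unthinned share there was 46%, at a median of 15945 UMIs per MDM against 3769 per endothelial cell.

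*S100a4*, *S100a6*, *S100a10* and *S100a11*, the members that bind myosin and annexins, were followed together in monocyte lineage cells. All 4 were high in monocytes and dendritic-like cells, which are the blood-derived cells with *Ccr2* and MHC class II genes, and lower in MDMs in each library with at least 20 cells of both. *S100a4* in monocytes and dendritic-like cells was 2124, 1422 and 681 CPM in the sham, 7 dpi and 28 dpi vehicle libraries and 2602 and 1486 CPM at 7 and 28 dpi under PLX5622. *S100a4* in MDMs was 7.05, 55.0 and 2.60 CPM under vehicle and 125 and 6.99 CPM under PLX5622. The 2 clusters had different orders under vehicle. In monocytes the sham library was the highest and in MDMs the 7 dpi library.

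MDMs at 7 dpi under vehicle had higher levels of most S100 genes than MDMs of sham cords. Of 9 members tested, 7 were at least 2-fold higher (*S100a9*, *S100a4*, *S100a6*, *S100a10*, *S100a11*, *S100b* and *S100a1*) and none was 2-fold lower, where 4.09% of all genes tested were 2-fold higher and 11% lower. The members' median log2 ratio was 1.71 and that of all genes -0.25. *S100a6*, which is induced in many cells that enter the cell cycle or spread, was 18.3, 150.3 and 10.7 CPM in the sham, 7 dpi and 28 dpi vehicle libraries, a log2 ratio of 3.04 (2.48 to 3.65). *S100a11* was 38.8, 129 and 20.8 CPM, a log2 ratio of 1.73 (1.34 to 2.14) at 7 dpi over sham. *S100a10* was 31.0, 80.5 and 10.5 CPM, a log2 ratio of 1.38 (0.94 to 1.84). The 7 dpi library stood above both others for each of these genes.

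The sham library held 185 MDMs and few UMIs of these genes, 10 for *S100a4*, 5 of them in 1 cell. For *S100a4* the log2 ratio of 7 dpi over sham ran from 1.72 with each cell weighted alike to 3.92 without the cell with most UMIs of each library, and for *S100a6* from 2.94 to 4.64. The *S100b* call rests on 3 UMIs in sham MDMs, and with thinned cells its ratio was 0.54. Median UMIs per MDM were near equal, 5769 in sham and 5777 at 7 dpi, and the share of cells with *S100a9* at 7 dpi was under the endothelial one, as given above. *S100a9* was also 2-fold higher at 7 dpi over sham in microglia, ependymal cells and oligodendrocyte lineage cells. No change particular to MDMs is read from its call. Both the *S100a9* and the *S100b* call are in the count and the median above.

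By 28 dpi most of these levels were lower again, but *S100a9* was not, at 71.7 CPM at 7 dpi and 82.9 CPM at 28 dpi. Of 9 members tested in MDMs, 5 were at least 2-fold lower at 28 than at 7 dpi under vehicle (*S100a4*, *S100a6*, *S100a10*, *S100a11* and *S100a1*) and none was 2-fold higher, where 3.6% of all genes were lower and 3.29% higher. The log2 ratios were -4.40 (-4.93 to -3.93) for *S100a4*, -3.82 (-4.06 to -3.58) for *S100a6*, -2.94 (-3.19 to -2.69) for *S100a10* and -2.63 (-2.81 to -2.45) for *S100a11*. The members' median was -1.03 against 0.01 over all genes. *S100a1* was at -1.03, and at -0.92 with thinned cells, under the fold. These 2 libraries held 3023 and 3313 MDMs with median UMIs of 5777 and 3875. The thinned share of MDMs with *S100a6* was 9.14% at 7 dpi and 0.952% at 28 dpi, and that of microglia, in which these genes were low, was 2.07% and 2.02%. The share of MDMs with *S100a6* at 28 dpi was thus not above the microglial one.

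**Figure D4:**
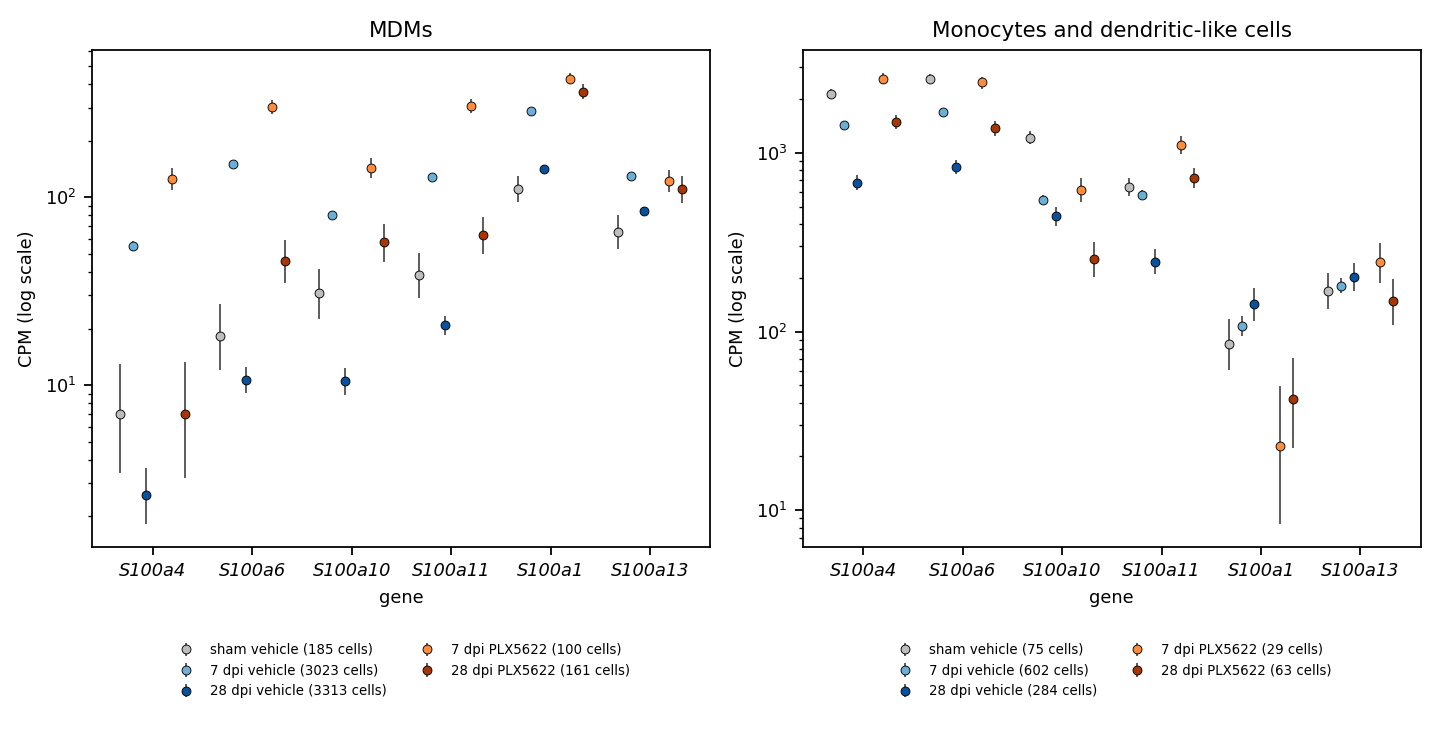
CPM (y axis, log scale) of 6 S100 genes (x axis) in MDMs (left) and in monocytes and dendritic-like cells (right), by library with cell numbers. Points are summed CPM, bars are exact 95% Poisson intervals, and libraries with fewer than 20 cells of the cluster are left out. In MDMs the 7 dpi libraries of both diets lie above the others for *S100a4*, *S100a6*, *S100a10* and *S100a11*, with *S100a4* at 55.0 CPM (vehicle) and 125 CPM (PLX5622).

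The 4 genes tended to be found in the same MDMs. At 7 dpi under vehicle 350 of 3023 MDMs had *S100a4*, and 70.6% of these had *S100a6*, against 20.4% of the MDMs without *S100a4*. *S100a10* was found in 58.6% and 23.5% and *S100a11* in 63.7% and 36.1% of the same 2 sets, while *S100a8* was found in 35.7% and 34.9%. Cells with *S100a4* had a median of 6990 UMIs and those without it 5613, and the part of depth in these shares was not tested. In monocytes and dendritic-like cells of that library 92.4% of the 419 cells with *S100a4* had *S100a6*, against 42.6% of the others, at medians of 3087 and 2891 UMIs.

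Fewer MDMs remained under PLX5622, and some members were past the fold between the diets. At 28 dpi 4 of 7 members tested were at least 2-fold higher under PLX5622 (*S100a6*, *S100a10*, *S100a11* and *S100a1*) and *S100a9* was 2-fold lower, where 2.33% of all genes were higher and 2.48% lower. *S100a9* was also 2-fold lower in microglia, endothelial cells, astrocytes, T and NK cells and ependymal cells. The median thinned share with *S100a9* over cell types was 13.1% under vehicle and 1.79% under PLX5622. No change particular to MDMs is read from its call. The log2 ratios were 2.10 (1.64 to 2.55) for *S100a6*, 2.45 (2.03 to 2.86) for *S100a10*, 1.60 (1.23 to 1.96) for *S100a11* and 1.37 (1.22 to 1.51) for *S100a1*. The members' median was 1.37 against 0.01 over all genes. With each cell weighted alike *S100a1* was at 0.95, under the fold. The PLX5622 values were 45.8, 57.5, 62.9 and 364 CPM from 161 cells.

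At 7 dpi 3 of 9 members tested were 2-fold higher under PLX5622 (*S100a4*, *S100a6* and *S100a11*) and *S100a9* was 2-fold lower, where 1.83% of all genes were higher and 2.17% lower, and the medians were 0.58 and 0.0036. *S100a9* was also 2-fold lower in microglia, endothelial, ependymal and oligodendrocyte lineage cells, and 2-fold higher in monocytes and dendritic-like cells. Its median thinned share over cell types was 11.5% under vehicle and 0% under PLX5622. No change particular to MDMs is read from the *S100a9* call. *S100a4* differed by 1.19 (0.97 to 1.40), *S100a6* by 1.00 (0.87 to 1.14) and *S100a11* by 1.25 (1.12 to 1.39) on the log2 scale. The 3 higher calls depended on the processing. With cells thinned to 1000 UMIs *S100a4* was at 0.85, *S100a6* at 0.50 and *S100a11* at 0.95. Weighting all cells equally gave 0.96, 0.68 and 0.99, so that in neither case was one past the fold. Without the cell with most UMIs in each library *S100a11* was at 1.16 and the other 2 were at 0.86 and 0.57. A single cell of the 100 PLX5622 MDMs held 29% of the *S100a6* UMIs and another held 26% of the *S100a4* UMIs. Median UMIs per MDM were 15945 under PLX5622 and 5777 under vehicle, and the part of that depth in these ratios was not tested.

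In monocytes and dendritic-like cells the vehicle libraries stood in another order. Of 8 members tested, 5 were at least 2-fold lower at 28 dpi than in sham (*S100a8*, *S100a4*, *S100a6*, *S100a10* and *S100a11*) and none was 2-fold higher, where 4.56% of all genes were lower and 2.96% higher. *S100a6* was 2598, 1684 and 834 CPM in the 3 vehicle libraries, and *S100a10* was 1214, 547 and 441 CPM. The log2 ratios at 28 dpi over sham were -1.64 (-1.81 to -1.48) for *S100a4*, -1.64 (-1.79 to -1.49) for *S100a6* and -1.46 (-1.67 to -1.25) for *S100a10*. The members' median was -1.28 against -0.20 over all genes. With thinned cells 3 of the members were past the fold, and *S100a4* and *S100a11* stood at -0.91 each. The *S100a8* ratio was -0.10 without the cell with most UMIs in each library. The sham value rests on 75 cells.

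Under PLX5622 at 28 dpi 2 of 6 members tested were 2-fold higher than under vehicle in this cluster (*S100a4*, 1.13 (0.93 to 1.32), and *S100a11*, 1.56 (1.26 to 1.86)) and *S100a1* was 2-fold lower (-1.77 (-2.74 to -0.93)). Of all genes tested there 2.96% were higher and 13.1% lower, and the medians were 0.13 and -0.04. With thinned cells *S100a4* was at 0.54 and *S100a11* at 0.95, so neither was past the fold. At 7 dpi the 29 PLX5622 cells had 1107 CPM of *S100a11* against 583 CPM under vehicle. The high *S100a8* of the 7 dpi PLX5622 library (422 CPM) came from 1 droplet with 110 of its UMIs. Without the cell with most UMIs in each library the log2 ratio to vehicle went from 1.74 to -4.74.

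The known partners and receptors of S100 proteins were followed in the same libraries as a list of 14 genes. Annexin A2, the partner of S100A10, was at 62.8 CPM (*Anxa2*) in sham MDMs and 217 CPM at 7 dpi under vehicle. Of 12 of these genes tested in MDMs, 4 were at least 2-fold higher at 7 dpi than in sham (*Anxa1*, *Anxa2*, *Ahnak* and *Cd36*) and 2 were 2-fold lower (*Cd14* and *Il1a*), where 4.09% of all genes were higher and 11% lower. *Ahnak*, a large scaffold protein that S100A10 and annexin A2 bind, had a log2 ratio of 1.37 (1.08 to 1.69). From 7 to 28 dpi *Anxa1*, *Ahnak* and *Cd36* were 2-fold lower and *Cd14*, the co-receptor of Tlr4, was 2-fold higher, 3 and 1 of 12 tested, against 3.6% of all genes lower and 3.29% higher. Under PLX5622 at 28 dpi *Anxa1* (3.91, 3.35 to 4.48), *Ahnak* (3.87, 3.44 to 4.30) and *Cd36* (1.91, 1.48 to 2.32) were 2-fold higher than under vehicle and none of the 12 tested was 2-fold lower, against 2.33% and 2.48% of all genes. At 7 dpi under PLX5622 *Anxa1* was the 1 partner of 12 past the fold (1.60, 1.39 to 1.82), where 1.83% of all genes were higher. In monocytes and dendritic-like cells at 28 dpi over sham, 4 of 7 tested were lower (*Anxa1*, *Anxa2*, *Ahnak* and *Cd14*) and none was higher, against 4.56% and 2.96% of all genes. *Ager*, the receptor RAGE, had 80 UMIs in all cells together, and *Tlr4* had its highest medians in leptomeningeal cells (27.8 CPM) and microglia (21.3 CPM).

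Microglia held little of the annexin-binding group. *S100a4* was 3.34, 13.3 and 5.80 CPM and *S100a11* was 8.11, 16 and 11.2 CPM in the vehicle libraries. *S100a1*, which binds the ryanodine receptor and SERCA in muscle, and *S100a13* were the members described next, with *S100a8* and *S100a9* set aside for their shares given above. *S100a1* in microglia was 20.0, 71.5 and 63.4 CPM, log2 ratios of 1.84 (1.38 to 2.33) and 1.66 (1.21 to 2.15) over sham. Other clusters were also higher at 7 dpi than in sham under vehicle. *S100a1* went from 7.17 to 69.8 CPM in neutrophils and from 0 to 109 CPM in B cells. Neither of these pairs reached the minimum of 100 UMIs, and the sham library held 64 neutrophils and 23 B cells. In endothelial cells the log2 ratio was 0.36. The part of background in the microglial *S100a1* was not tested. *S100a13* was 54.9, 114 and 99.8 CPM, a log2 ratio of 1.06 (0.78 to 1.35) at 7 dpi.

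At 7 dpi 3 of 7 members tested in microglia were 2-fold higher than in sham (*S100a9*, *S100a1* and *S100a13*) and none was 2-fold lower, where 4.02% of all genes were higher and 21.5% lower. At 28 dpi it was 2 of 7 (*S100a9* and *S100a1*) and none lower, where 3.62% were higher and 12.5% lower. The members' medians were 0.98 and 0.86 against -0.54 and -0.44 over all genes. TMM and DESeq2 factors moved those all-gene medians to between -0.02 and 0.04 and raised every member by about the same step, so that 6 of 7 and 5 of 7 members were then past the fold, where with TMM 10.5% and 7.58% of all genes were 2-fold higher. On that scale *S100a1* had log2 ratios of 2.38 at 7 dpi and 2.09 at 28 dpi with TMM, and with thinned cells 1.08 and 0.97. The thinned share of microglia with *S100a9* was 10.7% and 11.2% at 7 and 28 dpi, under that of endothelial cells (13.7% and 12.9%), and no expression is read from its call. Surviving microglia under PLX5622 numbered 61 at 7 dpi and 126 at 28 dpi, and their *S100a1* was 67.8 and 79.1 CPM, log2 ratios of -0.08 (-0.71 to 0.49) and 0.32 (-0.23 to 0.82) to vehicle, intervals that include 0.

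*S100a1* in MDMs was 111, 288 and 141 CPM under vehicle and 429 and 364 CPM at 7 and 28 dpi under PLX5622. Both 7 dpi libraries stood above the sham library, and these 2 PLX5622 libraries above all 3 vehicle libraries. *S100a13* in MDMs differed less than 2-fold in each of these comparisons, with 0.98 at 7 dpi over sham, which became 1.27 with TMM factors.

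Lymphocytes held *S100a4*, *S100a6* and *S100a10*. *S100a4*, a known marker of memory T cells, was 367, 376 and 370.1 CPM in T and NK cells of the sham, 7 dpi and 28 dpi vehicle libraries and 524 and 942 CPM at 7 and 28 dpi under PLX5622. The vehicle values differed by less than their counting intervals, and the 28 dpi PLX5622 value was higher by a log2 ratio of 1.35 (1.11 to 1.59). With each cell weighted alike that ratio was 0.90, under the fold. The sham PLX5622 library had 1 UMI of *S100a4* in 21 such cells. *S100a10* in T and NK cells was 1163, 543 and 641 CPM under vehicle, a log2 ratio of -1.10 (-1.36 to -0.84) at 7 dpi over sham that was -0.81 with TMM, -0.89 with DESeq2 factors and -0.47 with each cell weighted alike.

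*S100a6* in B cells was 382, 3208 and 1310.4 CPM under vehicle and 4023 and 129.5 CPM at 7 and 28 dpi under PLX5622. The sham vehicle library held 23 B cells, 2 of them with *S100a6*, and 1 cell held 27 of the 28 UMIs. At 7 dpi under vehicle 112 of 190 B cells had it. The 7 dpi libraries of both diets were thus the highest, and the 28 dpi libraries differed by diet (-3.34 (-4.15 to -2.63)). *S100a4* in B cells was 239 and 155 CPM at 7 and 28 dpi under vehicle, against 1 UMI in sham, and 968 CPM at 7 dpi under PLX5622, where 1 of 22 cells held 50% of its UMIs. The cluster also led with *Igj* and *Mzb1*, genes of antibody-secreting cells, and the mix of B lineage stages in each library was not tested.

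Neutrophils were the cluster with most *S100a6* and *S100a11* as well. *S100a6* was 5389.7, 6326 and 5087 CPM under vehicle and 8955 CPM at 28 dpi under PLX5622, and *S100a11* was 3980.4, 3401, 2583 and 5637 CPM. The 28 dpi PLX5622 library was the highest for both, with log2 ratios to vehicle of 0.82 (0.69 to 0.94) and 1.13 (0.96 to 1.29), on the log2 scale. With each cell weighted alike the *S100a11* ratio was 0.70, and with cells of at least 500 genes the *S100a6* ratio was 1.45. *S100a4* in neutrophils was 61.0, 228 and 60.7 CPM under vehicle. In sham 76% of its 17 UMIs came from 1 cell.

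In astrocytes, the glia that support neurons and wall off the lesion, *S100b* was lower in the vehicle than in the PLX5622 library at each time. It was 622, 479 and 338 CPM in the sham, 7 dpi and 28 dpi vehicle libraries and 782, 895 and 877 CPM under PLX5622. The medians over all genes were -0.44 at 7 dpi and -0.35 at 28 dpi over sham under vehicle. The log2 ratio of *S100b* there was -0.38 (-0.72 to -0.05) at 7 dpi over sham and -0.88 (-1.16 to -0.61) at 28 dpi over sham, less than 2-fold, and with each cell weighted alike these were 0.35, of opposite sign, and -0.41. With TMM factors they were -0.15 and -0.59. Under PLX5622 the 28 dpi library stood at 0.17 (-0.12 to 0.45) over sham. The difference between the diets at 28 dpi was 1.38 (1.02 to 1.73). With TMM and DESeq2 factors, which moved the all-gene median of that comparison from 0.18 to -0.33 and -0.25, it was 0.86 and 0.94, under the fold, and with each cell weighted alike it was 0.71. The 28 dpi ratio to sham under vehicle was -0.28 with thinned cells. The 28 dpi libraries held 245 and 107 astrocytes.

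*S100b* in ependymal cells, the ciliated lining of the central canal, was 573, 700.4 and 590.1 CPM under vehicle and 669, 722 and 668 CPM under PLX5622. All comparisons between them were under 2-fold. In oligodendrocyte lineage cells it was 436, 1059 and 504 CPM under vehicle and 1178 and 706 CPM at 7 and 28 dpi under PLX5622. The 7 dpi library was the highest under each diet, and at 7 dpi over sham the log2 ratio was 1.28 (0.77 to 1.83) with 22 cells in sham. In microglia, MDMs, T and NK cells, B cells, monocytes and neutrophils *S100b* was at or under 28.7 CPM in every library.

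*S100a6* was lower in astrocytes, ependymal cells and oligodendrocyte lineage cells of sham cords than at 7 dpi under each diet with at least 20 cells. *S100a6* in astrocytes was 35.9, 571 and 86.9 CPM under vehicle and 22.2, 628 and 567 CPM under PLX5622. The PLX5622 values at 7 and 28 dpi rest on 66 and 86 UMIs against 13 in sham, and each pair was under the minimum of 100 UMIs. At 7 dpi 1 of 69 vehicle cells held 79 of 105 UMIs and 1 of 39 PLX5622 cells held 54 of 66. Without those cells the 7 dpi levels were 151 and 147 CPM, and without the top cell of each library the vehicle log2 ratio over sham went from 3.99 to 2.35. It was thus still past the fold. The 28 dpi level under PLX5622 was 432 CPM without its top cell, against 77.4 CPM under vehicle. *S100a11* in astrocytes had 1 UMI in each sham library and 114 and 276 CPM (21 and 29 UMIs) at 7 dpi, where 1 PLX5622 cell held 22 of the 29.

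*S100a6* in ependymal cells was 48.2, 218 and 172 CPM under vehicle and 70.2, 197 and 162 CPM under PLX5622. The sham library was the lowest under each diet. The log2 ratio at 7 dpi over sham was 2.18 (1.49 to 2.95) under vehicle and 1.49 (0.86 to 2.17) under PLX5622, and 2.12 and 1.13 without the top cell of each library. With each cell weighted alike the PLX5622 ratio was 0.61. In oligodendrocyte lineage cells *S100a6* was 154, 747 and 105 CPM under vehicle, with a log2 ratio of 2.28 (1.45 to 3.25) at 7 dpi over sham and -2.84 (-3.86 to -1.97) from 7 to 28 dpi. It was 858 CPM at 7 dpi under PLX5622.

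**Figure D5:**
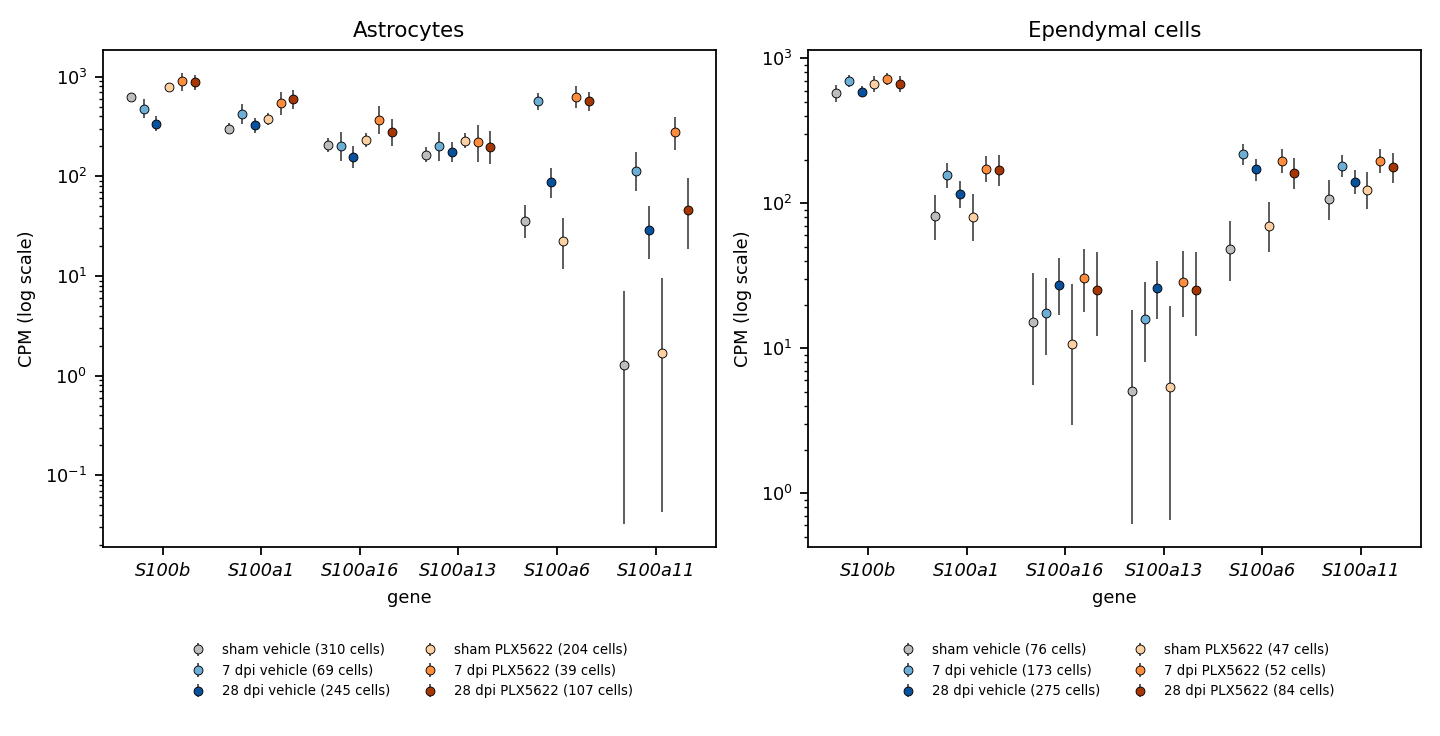
CPM (y axis, log scale) of 6 S100 genes (x axis) in astrocytes (left) and ependymal cells (right), by library with cell numbers. Points are summed CPM and bars are exact 95% Poisson intervals. *S100a6* in astrocytes is at 35.9 CPM in the sham vehicle and 571 CPM in the 7 dpi vehicle library, and *S100b* in ependymal cells stays between 573 and 722 CPM.

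*S100a10* was under 2-fold in the vehicle comparisons of ependymal cells and astrocytes with sham. In astrocytes at 7 dpi the ratio was 0.95, and 1.18 with TMM factors. Under PLX5622 *S100a10* in astrocytes was 93.9, 305 and 165 CPM in the sham, 7 dpi and 28 dpi libraries, from fewer than 100 UMIs in each pair. The 7 dpi library there was 1.70 (1.02 to 2.35) above sham on the log2 scale, and the later library 0.81 (0.07 to 1.52). It was 789.6 CPM in oligodendrocyte lineage cells at 7 dpi under PLX5622 against 207 CPM under vehicle (1.93 (1.48 to 2.38)). Its highest cluster by median, leptomeningeal cells, had 1449 CPM in sham and 1308 CPM at 28 dpi under vehicle, and the other libraries held under 20 of these cells. In the sham vehicle library the pericyte and fibroblast cluster stood above it, at 1700 CPM.

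*S100a1* in oligodendrocyte lineage cells was 487, 1187 and 609 CPM under vehicle, and 1055 and 723 CPM at 7 and 28 dpi under PLX5622. As for *S100b*, the 7 dpi library was the highest under each diet (log2 ratio over sham under vehicle 1.28 (0.80 to 1.81)). *S100a1* in astrocytes was 301, 424 and 324 CPM under vehicle and 379, 543 and 594 CPM under PLX5622, with no comparison past the fold, although alternatives took it past the fold over sham. With thinned cells the ratio was 1.23 at 7 dpi and 1.09 at 28 dpi under vehicle and 1.35 at 28 dpi under PLX5622, and with each cell weighted alike it was 1.19 at 7 dpi under vehicle and, under PLX5622, 1.44 at 7 dpi and 1.13 at 28 dpi. *S100a16*, a member found in many tissues, was 987, 1474 and 1037 CPM in oligodendrocyte lineage cells and 208, 201 and 157 CPM in astrocytes of the vehicle libraries.

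Endothelial cells, the lining of blood vessels, held *S100a13* and *S100a16* at near equal levels in all 6 libraries. *S100a13* was 388, 403 and 454 CPM under vehicle and 483, 504 and 551 CPM under PLX5622. *S100a16* was 317, 262 and 278 CPM under vehicle and 291, 260.2 and 288 CPM under PLX5622. No difference between 2 of these libraries reached 2-fold. *S100a6* in endothelial cells was 314, 159 and 71.0 CPM under vehicle, a log2 ratio of -2.14 (-2.63 to -1.67) at 28 dpi over sham. In sham 1 of 82 cells held 48 of its 97 UMIs, and without the top cells the ratio was -1.33. Ependymal cells had the lowest median *S100a13* of the 14 clusters, at 5.07 to 28.7 CPM.

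Across the 66 units of a cluster in a library with at least 20 cells, log2(CPM + 10) of the members was compared with that of 9451 genes with 500 or more UMIs. The units share 6 libraries and 14 clusters, so the correlations describe these cells only. *S100a8* was most like *S100a9* (Pearson r 0.97), followed by *Camp* and *Ngp* (0.92 each). *S100a4* was most like *Ccr2* (0.82), the chemokine receptor of inflammatory monocytes. *S100a11* was most like *Anxa2* (0.84) and *S100a6* (0.83), and *S100a10* was most like *Ahnak* (0.81). *S100b* was most like *Map1a* (0.96) and *S100a16* like *Ptn* (0.94), both genes of neural cells. *S100a1* was most like *Mlf2* (0.79). *S100a1* and *S100a13*, whose starts overlap, had an r of 0.22 with each other, and the 2 neighbours *S100a8* and *S100a9* one of 0.97.

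3 other genes of the table have a symbol with this stem. *S100a3* had 16 UMIs in all cells, 12 of them in oligodendrocyte lineage cells, *S100a5* had 6 UMIs, and *S100pbp*, which encodes a protein that binds S100P, had 206. These counts are too low to compare between libraries. A pseudogene of *S100a11* exists in the mouse genome, so its reads could in part be shared.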

How the data were processed

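Single-cell RNA-seq of 6 libraries (1 for each diet and time) was used, and 14 bulk RNA-seq samples were not analysed here. Per the labels and the study's methods, the authors aligned and counted reads with Cell Ranger, filtered and clustered cells with Seurat, and deposited raw UMI counts with a cluster number for each cell. The methods state an upper limit of 3000 genes per cell, and 716 cells of the table exceeded it. The label cell numbers were 1916, 7439 and 9848 under vehicle and 594, 533 and 940 under PLX5622, and the table held 21016 cells in all. Droplets with 2 cells were left in.

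Counts were summed per cluster and library to CPM, with exact 95% Poisson intervals. Log2 ratios of 2 libraries had exact conditional binomial intervals, shares had Clopper-Pearson intervals, and a count of 0 was read against a floor of 3 counts. With 1 library per group no test was run. A ratio was called at 2-fold, with 100 UMIs and 20 cells per library as minimums. Cells were thinned to 1000 UMIs for shares. Likeness was the Pearson correlation of log2(CPM + 10) over genes with at least 500 UMIs.

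The genes named were the 10 members, other S100 symbols, 14 partners and receptors, cluster markers where a result turns on one, and genes among the 3 most like a member, not all of which are reported here. Members and lists were chosen with earlier results of these data known. Alternatives were edgeR TMM and DESeq2 factors, totals without ribosomal protein genes, cells with at least 500 genes, thinned cells, equal weight for each cell, no minimum of UMIs, and only cells with fewer than 2 neutrophil marker UMIs. Using the last of these for the *S100a8* to *S100a9* ratio, and leaving out the cell with most UMIs of a gene, were chosen after seeing the data. The ratio script was tested on simulated data: for MDMs at 7 dpi over sham it called 100% of 200 genes changed 4-fold among 8195. For MDMs under PLX5622 over vehicle at 7 dpi it called 100% of the raised and 97% of the lowered genes. Of the unchanged genes 1.13% and 0.948% were past the fold in these 2 comparisons. The simulated counts held counting error only, without variation between cells or libraries, so these shares are not error rates for the real libraries. Python 3.11.15 with numpy 2.4.6, scipy 1.17.1 and pandas 2.3.3 and R 4.3.3 with edgeR 4.0.16 and DESeq2 1.42.0 were used.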

Additional observations from a re-analysis of the deposited data

Results flagged for a closer look

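*S100a4* in T and NK cells lay past the fold in opposite directions between the diets at 2 times. In the sham libraries the log2 ratio of PLX5622 over vehicle was -5.22, from 1 UMI in 21 PLX5622 cells against 102 UMIs in the vehicle cells, with a counting interval from -10.54 to -2.71. At 28 dpi it was 1.35 (1.11 to 1.59). It was the 1 such pair among 115 pairs of ratios compared, and the difference was not tested.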

How the results depend on the processing

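No paired analysis was possible because each group held 1 library and no test was run. Of 270 member ratios, 264 kept their direction with TMM factors, 266 with DESeq2 factors, 269 without ribosomal protein genes, 269 with cells of at least 500 genes, 257 with cells under 2 neutrophil marker UMIs, 255 without the cell with most UMIs and 231 with thinned cells, as did 241 of 268 with equal cell weights. The causes were not tested.

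Counts of members past the fold that moved by over 1.5 times were as follows. In MDMs under PLX5622 over vehicle at 7 dpi, 3 higher became 0 with thinned cells, 0 with equal cell weights and 1 without the top cell. At 28 dpi 4 higher became 7 with no minimum of UMIs, and 1 lower became 2 with thinned cells. In monocytes and dendritic-like cells at 28 dpi over sham, 0 higher became 1 with cells under 2 neutrophil marker UMIs and 1 without the top cell, and 5 lower became 3 with thinned cells and 3 with equal weights. Under PLX5622 over vehicle at 28 dpi, 2 higher became 0 with thinned cells, and 1 lower became 2 with thinned cells, 2 without the top cell and 3 with no minimum. In microglia at 7 dpi over sham, 3 higher became 5 without ribosomal protein genes, 6 with TMM factors, 6 with DESeq2 factors and 5 with no minimum, and at 28 dpi 2 became 5 with TMM and 5 with DESeq2 factors. In proliferating cells at 7 dpi, 0 higher became 1 with equal weights. Smaller shifts were also seen. In MDMs at 7 dpi over sham 7 higher became 9 with TMM and with DESeq2 factors, which also took the share of all genes 2-fold higher from 4.09% to 7.89% and 8.42%. From 7 to 28 dpi 5 lower became 4 with equal weights, and under PLX5622 over vehicle 4 higher became 3 with equal weights at 28 dpi and 3 became 2 with TMM factors at 7 dpi. In monocytes and dendritic-like cells at 28 dpi over sham 5 lower became 4 with TMM factors, and in proliferating cells at 7 dpi 6 lower became 5 with equal weights.

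Ratios past the fold that changed sign did so with cells under 2 neutrophil marker UMIs, without the top cell or with thinned cells, and ratios under the fold changed sign under each of the 8 settings. In monocytes and dendritic-like cells under PLX5622 over vehicle at 7 dpi, *S100a8* went to -4.42 and -4.74 and *S100a9* to -3.12 and -3.51 with cells under 2 marker UMIs and without the top cell, and *S100a1* to 0.10 with thinned cells. In endothelial cells at 28 dpi over sham *S100a8* went to 1.49 and 1.52 and *S100a9* to 1.20 and 1.24 by the same 2 settings. *S100a9* in proliferating cells at 28 dpi over sham went to 0.68 with cells under 2 marker UMIs, and *S100a11* in the pericyte and fibroblast cluster to 0.044 with thinned cells. The *S100a8* to *S100a9* ratio of vehicle MDMs became 1.82 at 7 dpi and 0.849 at 28 dpi with cells under 2 marker UMIs.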
